A study of Drosophila melanogaster with 3 samples.

Results

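The nuclear tRNA genes of Drosophila melanogaster were read against the binding sites of CG17359, mapped by chromatin immunoprecipitation and sequencing (ChIP-seq) in whole embryos. Members were all genes on the 6 chromosome arms whose annotated symbol begins with tRNA, which gave 295 of the 18164 genes on the arms (dm6, Ensembl annotation). Of these, 290 are annotated as tRNA genes and 5 as pseudogenes, and their names cover 22 amino acid groups (initiator methionine and selenocysteine counted apart) and 44 anticodons. The embryos were 0 to 14 h old and came from 1 transgenic line that stably expresses CG17359 with GFP at its C terminus. The chromatin was pulled down with an antibody against GFP. The 3 biological replicates form 1 group, with 1 control alignment shared by all of them, and no untagged or mutant group was analysed here. The labels do not state which promoter drives the transgene, whether the untagged gene was also present, or which material made up the control. The whole embryo mixes all cell types of these stages, so a peak cannot be assigned to any of them.

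A tRNA gene is short and is transcribed by RNA polymerase III. Its promoter lies inside the gene, in the A box near the start and the B box near the end, which the factor TFIIIC binds. TFIIIC places TFIIIB (Brf, Bdp1 and a TBP-type protein, in flies Trf) just upstream of the start, and transcription stops at a run of T after the gene. tRNA genes often lie in clusters and exist in several identical copies. The A box was found in 270 members (91.5%), a B box with the letters GTTCNANNC (the gene's own strand) in 274 (92.9%) and TTTT within 40 bp after the gene in 292.

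The first set of sequences shows 5 loci with a summit in the thresholded list, since they span the range of signal, from the strongest tRNA peak to those near the end of that list, with a summit upstream of the gene. Each stretch (dm6, 5′ to 3′ on the strand of the gene) opens 20 bases before the summit and closes at the end of the gene, and the capitals mark the tRNA gene. The stretches are chr3R:8669081-8669377 (minus strand) for tRNA:Tyr-GTA-1-8, chr3R:24112759-24113047 (plus) for tRNA:Leu-TAA-2-1, chr3R:17617590-17617833 (plus) for tRNA:Val-CAC-1-1, chr3L:3096202-3096440 (plus) for tRNA:Cys-GCA-1-3 and chr3R:17646683-17646977 (minus) for tRNA:Ala-AGC-2-8. In all 5 the summit lay outside the gene and upstream of it.
tRNA:Tyr-GTA-1-8: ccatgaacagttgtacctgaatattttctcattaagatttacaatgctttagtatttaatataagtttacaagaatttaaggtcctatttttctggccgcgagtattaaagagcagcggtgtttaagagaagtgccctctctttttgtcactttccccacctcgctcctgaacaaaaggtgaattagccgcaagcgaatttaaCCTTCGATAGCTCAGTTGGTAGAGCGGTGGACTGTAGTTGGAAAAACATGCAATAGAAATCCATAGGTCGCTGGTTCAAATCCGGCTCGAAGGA
tRNA:Leu-TAA-2-1: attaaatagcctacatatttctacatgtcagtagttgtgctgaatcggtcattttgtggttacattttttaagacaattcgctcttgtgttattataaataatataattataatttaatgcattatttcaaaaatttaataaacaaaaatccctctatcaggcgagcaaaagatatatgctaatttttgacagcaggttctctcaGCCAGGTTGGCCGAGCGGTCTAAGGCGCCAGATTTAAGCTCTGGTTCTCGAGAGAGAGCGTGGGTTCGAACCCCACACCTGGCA
tRNA:Val-CAC-1-1: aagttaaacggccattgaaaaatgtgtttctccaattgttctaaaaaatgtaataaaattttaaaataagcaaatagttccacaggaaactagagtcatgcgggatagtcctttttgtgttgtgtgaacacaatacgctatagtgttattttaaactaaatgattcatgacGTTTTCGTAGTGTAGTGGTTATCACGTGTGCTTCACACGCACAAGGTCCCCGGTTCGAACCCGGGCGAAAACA
tRNA:Cys-GCA-1-3: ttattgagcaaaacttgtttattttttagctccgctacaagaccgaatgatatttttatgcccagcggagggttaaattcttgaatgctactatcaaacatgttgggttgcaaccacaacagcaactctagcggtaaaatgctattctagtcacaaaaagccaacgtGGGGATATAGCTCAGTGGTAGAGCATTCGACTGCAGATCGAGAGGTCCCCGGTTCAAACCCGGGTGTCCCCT
tRNA:Ala-AGC-2-8: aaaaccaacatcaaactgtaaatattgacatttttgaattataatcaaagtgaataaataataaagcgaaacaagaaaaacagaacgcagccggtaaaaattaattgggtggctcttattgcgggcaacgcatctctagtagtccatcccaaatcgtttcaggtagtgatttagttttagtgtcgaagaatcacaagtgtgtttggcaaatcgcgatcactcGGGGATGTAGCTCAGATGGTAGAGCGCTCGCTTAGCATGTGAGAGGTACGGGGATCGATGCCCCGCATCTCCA

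The second set shows 5 gene bodies, chosen because they come from families of identical copies of which some had a thresholded summit and others had none. The capitals mark the A box and the B box on the strand of the gene. The genes are chr3L:3095737-3095808 (plus) for tRNA:Cys-GCA-1-1, chr2L:8541552-8541623 (minus) for tRNA:Asp-GTC-1-4, chr3R:17631042-17631114 (minus) for tRNA:Ala-AGC-2-5, chr3R:17631679-17631750 (plus) for tRNA:Pro-TGG-1-3 and chr3R:19672277-19672349 (minus) for tRNA:Val-CAC-2-5. The Ala gene holds the A box but not the searched letters of the B box, so only its A box is in capitals.
tRNA:Cys-GCA-1-1: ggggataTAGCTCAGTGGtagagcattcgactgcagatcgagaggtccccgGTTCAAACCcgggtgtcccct
tRNA:Asp-GTC-1-4: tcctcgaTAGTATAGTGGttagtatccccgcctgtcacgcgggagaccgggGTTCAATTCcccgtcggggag
tRNA:Ala-AGC-2-5: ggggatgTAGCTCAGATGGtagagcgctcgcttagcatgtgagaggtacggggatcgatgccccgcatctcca
tRNA:Pro-TGG-1-3: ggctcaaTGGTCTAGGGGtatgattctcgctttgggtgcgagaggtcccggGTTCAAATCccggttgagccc
tRNA:Val-CAC-2-5: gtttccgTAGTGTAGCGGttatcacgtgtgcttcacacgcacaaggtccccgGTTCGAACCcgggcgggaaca

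The authors' peaks came as 5 lists. The thresholded list held 7287 peaks made from the replicate and pooled lists by an irreproducible discovery rate procedure, and the pooled list and each replicate list held 30000. A gene was counted when a summit, the authors' position of highest signal in a peak, lay within 500 bp of its annotated start. A signal value is the authors' own height of a peak and is used only within its list, as is its rank, where 1 is the strongest. No read counts are given, which leaves the depth of each library unknown. Replicates 1 and 3 and the pooled list had a most common peak width of 390 bp, and replicate 2 of 330 bp, which limits how finely a summit can be placed. Exact Clopper-Pearson intervals at 95% cover the counting of genes only, and neighbouring genes that share a peak are not independent.

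In the thresholded list, tRNA genes had a summit less often than protein-coding genes or all genes on the arms. Their share was close to that of the other genes that do not code for protein. A tRNA gene was read at its 1 start, while any other gene counted when at least 1 of its annotated starts had a summit. A thresholded summit lay at 33 of 295 tRNA genes (11.2%, interval 7.83 to 15.4%), while 20.5% of all genes on the arms had one. Protein-coding genes reached 23.9% and the other 3924 genes that do not code for protein 9.07%. The 33 genes shared 24 distinct peaks, 7 of which served more than 1 tRNA gene and 1 of which served 4. None of the 5 pseudogenes was among them. Of the 33, 32 had a summit in all 3 replicate lists and 1, tRNA:Cys-GCA-1-1, in 2. The thresholded list was made from these lists, so such overlap is largely built in. The same count was not made for all genes. The median signal at the 24 peaks was 368, against 389 over the whole list, and their median rank was 3894 where the middle of the list is 3644.

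A part of these summits lay beside coding starts. At 14 genes (12 peaks) every thresholded summit lay within 500 bp of the start of a protein-coding gene, and at 19 genes (12 peaks) a summit had no coding start that close. The 19 make 57.6% of the genes with a thresholded summit. Among the other noncoding genes, 5.50% had a thresholded summit away from coding starts, so the 19 of 295 tRNA genes stood near that background. The median signal was 504 at the tRNA peaks near coding starts and 276 at those away from them.

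The 10 tRNA genes with the highest thresholded signal were mostly beside a coding start. tRNA:Tyr-GTA-1-8, in an intron of CG8036, had a signal of 2564, with its summit 183 bp upstream and 261 bp from the start of CG8036. It ranked 133 in the thresholded list and 165, 119 and 132 in replicates 1, 2 and 3, so its rank was high in all of them. tRNA:Leu-TAA-2-1, which lies alone, followed at 824.2, with the summit 185 bp upstream of the gene and 390 bp from the start of CG13605. Its replicate ranks were 1172, 1521 and 1337.

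tRNA:Glu-TTC-1-5 on arm 2R had the strongest peak away from coding starts, at 788.9. Its summit lay 259 bp downstream of the start, and the nearest coding start, that of CG8517, was 13196 bp away. The signal was 228.8, 208.6 and 330.4 in replicates 1, 2 and 3, with ranks of 1290, 1640 and 1449. tRNA:Gly-GCC-1-9 and tRNA:Trp-CCA-2-2 shared a peak of 775.1, whose summit was 28 bp from the start of CG30122. It lay 498 bp downstream of the Gly start and 259 bp upstream of the Trp start.

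The other members of the top 10 included 3 more genes near coding starts. tRNA:Val-CAC-2-5 had a signal of 735.2, in an intron of Naam, a nicotinamidase gene, with the summit 485 bp downstream and 414 bp from the start of Naam. tRNA:His-GTG-1-3 had 664.6, with the summit 77 bp from the start of CG8490. tRNA:Phe-GAA-1-2 on the X had 540.6, with the summit 59 bp from the start of RpL17, a gene for a large ribosomal subunit protein. The diverging pair tRNA:Arg-CCT-1-2 and tRNA:Arg-CCT-1-3 shared a peak of 511.5 between them, 182 bp upstream of the first and 269 bp upstream of the second, with the nearest coding start 4453 bp away. The ranks of that pair's peak were 2025, 5331 and 2550, lowest in replicate 2.

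The rest of the 19 genes away from coding starts had signals between 214.1 and 364.0. tRNA:Ala-TGC-2-1 was the highest at 364.0, with replicate signals of 154.0, 93.53 and 143.9. tRNA:Phe-GAA-1-4 and tRNA:Phe-GAA-1-5, which point away from each other, shared a peak of 328.3 whose summit lay 86 bp upstream of one and 78 bp upstream of the other. The replicates differed at this pair, with ranks of 5563, 2216 and 9655.

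tRNA:Ala-AGC-2-5 and tRNA:Pro-TGG-1-3, in an intron of CG43175, shared a peak of 317.2, with the coding start 595 bp from the summit. Its signals were 115.6, 51.51 and 150.6 in replicates 1, 2 and 3. Its ranks there were 3550, 10108 and 4245, lowest in replicate 2. Further singly assigned peaks were those of tRNA:Pro-AGG-1-2 (281.5), tRNA:Gln-TTG-2-1 (269.5, in an intron of CG12535), tRNA:Thr-AGT-1-2 (267.4, 60 bp upstream, in an exon of CG12831), tRNA:Ala-AGC-2-8 (233.4, 202 bp upstream) and tRNA:Val-CAC-1-1 (215.1, 151 bp upstream). tRNA:Leu-CAG-1-2 and tRNA:Leu-CAG-1-3 shared a peak of 214.7. In an intron of Cht7, 1 peak of 214.1 served tRNA:Cys-GCA-1-1, tRNA:Cys-GCA-1-2, tRNA:Cys-GCA-1-3 and tRNA:Lys-CTT-1-12. These last peaks sat near the end of the thresholded list, at ranks 7146 and 7170 of 7287.

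**Figure D1:**
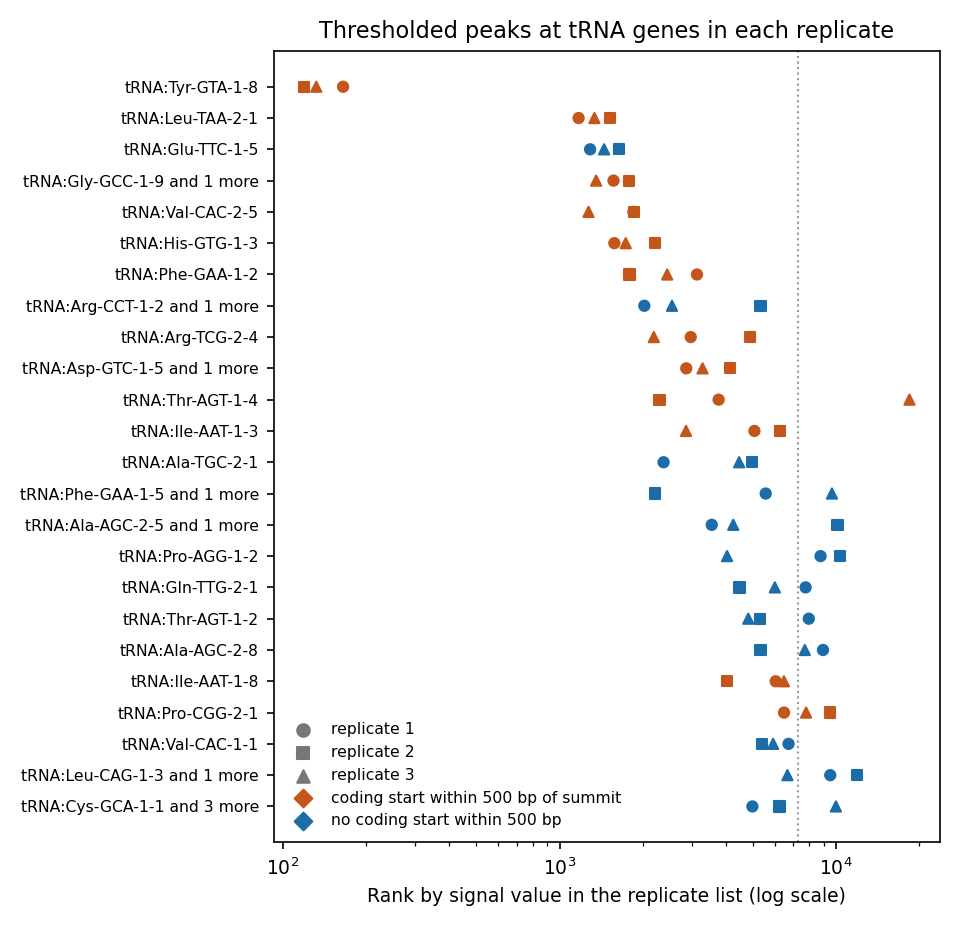
Rank by signal value in each replicate list (log axis, 1 is strongest) of the summits at the 24 thresholded peaks of tRNA genes, ordered by thresholded rank, with the dotted line at 7287. tRNA:Tyr-GTA-1-8 stands apart at ranks 119 to 165, and the others lie between 1172 and 11908 except tRNA:Thr-AGT-1-4, which reaches 18408 in replicate 3.

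Inside that set, agreement between replicates was graded. When each replicate list was cut to its 7287 strongest peaks, 17 of the 33 genes had a summit in all 3 replicates, 10 in 2 and 6 in 1. tRNA:Thr-AGT-1-4, named here after its values were seen, ranked 3760 and 2298 in replicates 1 and 2 and 18408 in replicate 3. The distance limit also mattered at its edge. The furthest genes counted, by their nearest summit, were tRNA:Val-CAC-2-5 and tRNA:Cys-GCA-1-1 at 485 bp and tRNA:Pro-CGG-2-1 at 473 bp, and the nearest genes not counted were tRNA:Ile-AAT-1-9 at 531 bp and tRNA:Leu-CAA-2-2 at 558 bp.

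In the full lists, where weaker peaks count, the order against all genes and coding genes turned round. There tRNA genes had summits more often than either, and more often than other noncoding genes. A pooled summit lay at 171 of 295 tRNA genes (58.0%, interval 52.1 to 63.7%), against 42.7% of all genes on the arms, 46.8% of protein-coding genes and 26.8% of the other noncoding genes. The 171 genes shared 118 distinct peaks, and 44 of these served more than 1 tRNA gene. A pooled summit away from coding starts lay at 147 of the 295 tRNA genes (100 peaks), which is 86.0% of those with a pooled summit. Of all other noncoding genes, 19.4% had such a summit. The median signal at the tRNA peaks was 113 and over the whole pooled list 104. It was 317 at tRNA peaks near coding starts and 107 away from them. Of the pseudogenes, 2 had a pooled summit, and both lie in clusters.

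The replicate lists gave the same order separately. Replicate 1 had a summit at 177 tRNA genes (60.0%) with 43.9% of all genes, replicate 2 at 181 (61.4%) with 45.7%, and replicate 3 at 160 (54.2%) with 43.3%. The mean was 58.5% ± 3.78 (SD, n = 3), against 44.1% ± 1.21 of all other genes, a difference of 14.5 ± 2.90 percentage points that was positive in 3 of 3 replicates. The two-sided exact sign-flip permutation test gave p = 0.25, the smallest p that 3 replicates allow, so no difference between these replicates could pass 0.05. Against the other noncoding genes (27.6% ± 1.06) the difference was 30.9 ± 3.22 points. Among genes with no coding start within 500 bp it was 33.1 ± 3.71 points, from 57.0% ± 4.12 of tRNA genes and 23.9% ± 0.973 of other noncoding genes, again in 3 of 3 replicates (exact p = 0.25).

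Among the 7287 strongest peaks of each replicate the difference from all other genes had the opposite sign. The tRNA genes reached 11.5%, 15.6% and 9.49% in replicates 1, 2 and 3, while all genes on the arms stood at 20.9%, 21.3% and 20.4%. The mean was 12.2% ± 3.11, against 21.0% ± 0.441 of all other genes, a difference of -8.83 ± 2.69 points that was negative in 3 of 3 replicates (exact p = 0.25). Against other noncoding genes, leaving out genes with a coding start within 500 bp, the difference was 1.55 ± 3.61 points, positive in 2 of 3 replicates (exact p = 0.75) and within the spread between replicates.

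**Figure D2:**
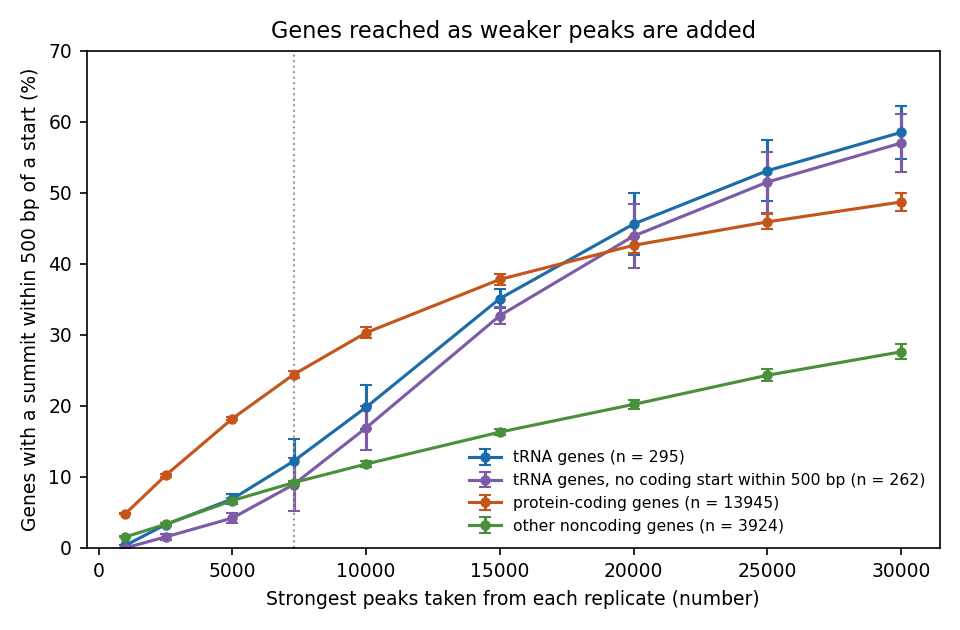
Percentage of genes with a summit within 500 bp of a start (mean ± SD of 3 replicates) against the number of strongest peaks taken from each replicate, with the dotted line at 7287. The tRNA genes rise from 0.339% at 1000 peaks to 58.5% at 30000 and pass the protein-coding genes (4.81% to 48.7%) between 15000 and 20000 peaks.

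The plot of genes reached as weaker peaks are added shows where tRNA genes enter the lists. The tRNA genes stood at 3.28% with 2500 peaks, 19.8% with 10000, 35.1% with 15000 and 45.6% with 20000. Protein-coding genes stood at 10.2%, 30.3%, 37.8% and 42.6% at those points. At 20000 peaks the gap lay within the SD of the tRNA share. The median rank of the pooled tRNA peaks was 13808 of 30000.

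A coding start near the tRNA gene went with a summit among the strongest peaks. Of the 295 genes, 33 have a coding start within 500 bp of their own start. Of these 11 (33.3%, interval 18.0 to 51.8%) had a thresholded summit, against 22 of the other 262 (8.40%, interval 5.34 to 12.4%). Other noncoding genes differed in the same direction, with 19.1% of those beside a coding start and 7.14% of the rest. The pattern is therefore not particular to tRNA genes. Among the strongest replicate peaks the shares of tRNA genes with and without a coding start were 38.4% ± 1.75 and 8.91% ± 3.71. The difference was 29.5 ± 5.40 points, in the same direction in 3 of 3 replicates (exact p = 0.25). With a limit of 250 bp for the coding start it was 11.9 ± 11.5 points (exact p = 0.5), not in 1 direction in all replicates, and with 1000 bp it was 15.8 ± 4.04. In the full lists the shares were 70.7% ± 1.75 and 57.0% ± 4.12, a difference of 13.7 ± 3.34 points (exact p = 0.25). That smaller difference turned to -1.42 ± 3.87 points when a coding start had to lie within 250 bp, and was 4.50 ± 4.83 points with a window of 1000 bp for the summit. Place within coding genes went with smaller differences: 13 of 130 intronic tRNA genes had a thresholded summit and 77 a pooled one, against 18 and 89 of the 158 between coding genes.

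Clustered tRNA genes had summits more often than singletons. A gene was called clustered when another tRNA gene started within 5 kb, which put 218 genes into 69 clusters and left 77 singletons. The full replicate lists held a summit at 69.7%, 71.1% and 61.0% of clustered genes and at 32.5%, 33.8% and 35.1% of singletons. The difference was 33.5 ± 6.55 points in 3 of 3 replicates (exact p = 0.25), with the replicates of both groups not overlapping. Beside the 43.9%, 45.7% and 43.3% of all genes, clustered genes lay above and singletons below in each replicate. Singletons still lay above the other noncoding genes (27.0%, 28.8% and 27.0%) in each. The difference between clustered genes and singletons was 35.7 ± 7.27 points among the genes with no coding start within 500 bp. Among the strongest replicate peaks the shares were 13.6% ± 3.82 and 8.23% ± 1.50, and the difference was 5.38 ± 2.98 points (exact p = 0.25), or 2.26 ± 2.85 (exact p = 0.5) with a window of 1000 bp.

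Windows of clustered genes overlap, so summits were also counted once over merged windows. Pooled summits then lay at 7.80 per 10 kb around clustered genes, 4.28 around singletons and 2.24 over the whole arms. Thresholded summits lay at 1.30, 1.04 and 0.544 per 10 kb. With a window of 100 bp, an alternative chosen after seeing the data, the difference between clustered genes and singletons in the full replicate lists was 15.5 ± 1.50 points. Of the 69 clusters, 55 had a pooled summit at 1 gene or more, 28 at every gene, and 16 had a thresholded summit.

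**Figure D3:**
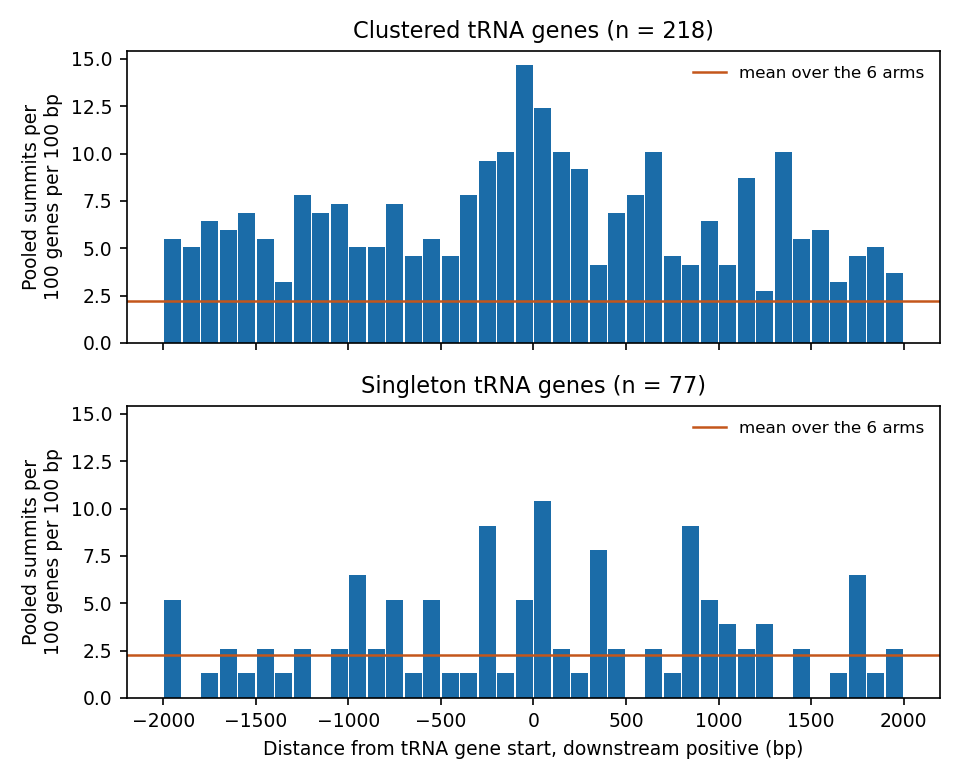
Pooled summits per 100 genes in bins of 100 bp around the start of 218 clustered and 77 singleton tRNA genes, with a line at the mean of the arms (2.24); a summit near several genes counts at each. Clustered genes reach 14.7 and 12.4 in the bins on both sides of the start and stay above the mean out to 2000 bp. Singletons reach 10.4 just downstream. Their other bins scatter below and above the mean, up to 9.09 at 200 to 300 bp upstream and again at 800 to 900 bp downstream.

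The largest clusters differed in strength. The first, chr2R:6161535-6171759, holds 11 genes (Asn-GTT, Lys-CTT, Arg-ACG and Ile-AAT), most of them in introns of EcR, the ecdysone receptor gene. It had no thresholded summit, but 10 of its genes had a pooled summit, and 10, 11 and 9 had one in replicates 1, 2 and 3. Its highest pooled signal was 187.8, between tRNA:Lys-CTT-1-5 and tRNA:Arg-ACG-1-4.

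The second, chr3R:17617761-17631750, also holds 11 genes (Ala, Pro, Val and Thr). Of these 3 had a thresholded summit, 9 a pooled summit, and 8, 9 and 9 a summit in replicates 1, 2 and 3. The thresholded peaks sat at its ends, at tRNA:Val-CAC-1-1 and between tRNA:Ala-AGC-2-5 and tRNA:Pro-TGG-1-3. tRNA:Val-AAC-1-2 inside it had no summit in any list.

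The third, chr2R:19725620-19729353, holds 8 genes (initiator Met, Glu-TTC, Glu-CTC and a Glu pseudogene) over 3734 bp. All 8 had a pooled summit and a summit in each replicate, and tRNA:Glu-TTC-1-5 had the thresholded one. Among the 7287 strongest peaks, 1 of its genes had a summit in replicates 1 and 3 and 6 in replicate 2, so replicate 2 stood apart there.

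**Figure D4:**
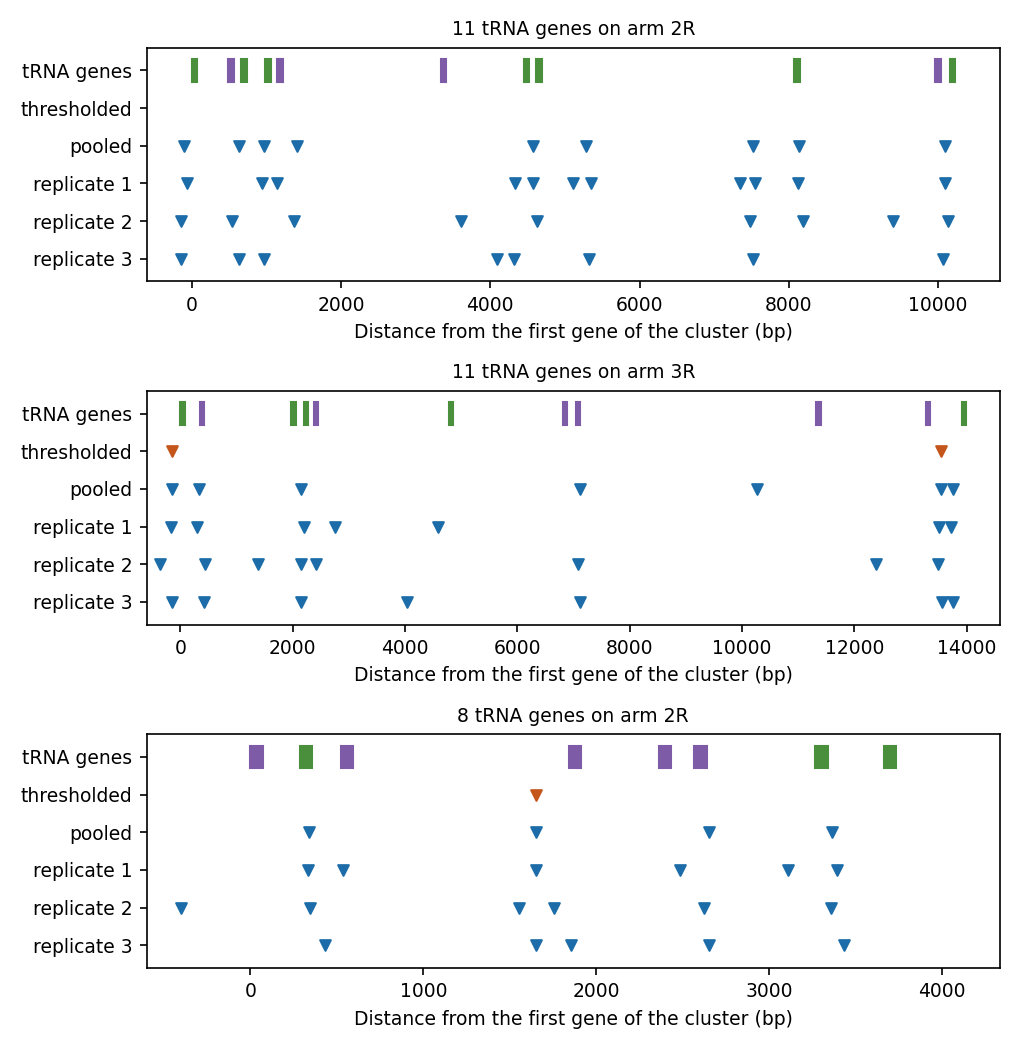
Positions of tRNA genes (green on the plus strand, purple on the minus strand, drawn at least 0.4% of the cluster wide) and of summits in each list along the 3 clusters with most genes, as distance in bp from the first gene. The cluster of 8 genes has 1 thresholded and 4 pooled summits, and the first cluster of 11 genes has 9 pooled summits and no thresholded one.

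Identical copies of a tRNA gene often differed in whether they had a summit. Of the 295 genes, 238 had the same sequence as at least 1 other tRNA gene, and there were 100 distinct sequences in all. Among the 24 sets of 5 or more identical genes (180 genes), 22 sets had some copies with a pooled summit and some without, 2 had none with one, and 0 had one at every copy. The 5 identical Lys-TTT genes had no summit in any list. With a pooled summit at 58.0% of all tRNA genes, many sets of this size could be mixed in any grouping, which was not tested. In 17 of the 24 sets, at least 1 copy had a summit in all 3 replicate lists and at least 1 other copy in no replicate list.

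The largest sets show this spread. Of 13 identical Gly-GCC genes, 5 had a pooled summit and 1 a thresholded one. The 13 identical Lys-CTT genes gave 8 and 1, the 12 Asp-GTC genes 7 and 2, and the 11 Ala-AGC genes 9 and 2. The 10 identical Arg-ACG genes gave 8 and 0, and the 10 Asn-GTT genes 9 and 0. The 9 identical Ile-AAT genes gave 8 and 2, and the 9 Glu-CTC genes 4 and 0. Copies of a set have the same gene sequence, boxes included, as printed above for 1 copy each of Cys, Asp, Ala, Pro and Val.

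Few stretches inside the genes were unique. In 238 genes no stretch of 50 bases was unique in the whole genome assembly, while the median tRNA start had 93.6% of such stretches unique within 250 bp on both sides. That share was 93.3% for clustered genes and 94.0% for singletons. In 5 windows fewer than 50% of the stretches were unique, and none of these 5 genes (tRNA:Glu-CTC-3-5, tRNA:Glu-CTC-3-6, tRNA:Glu-CTC-3-7, tRNA:Lys-TTT-2-2 and tRNA:Lys-TTT-2-3) had a pooled or replicate summit. How the authors' alignment treated reads with several positions is not given in the sources used here, and its part in the counts was not tested.

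Among amino acids with 5 or more genes, Asn had the highest share in the full lists and none among the strongest peaks. For comparison, a pooled summit lay at 58.0% of all tRNA genes and 42.7% of all genes on the arms. Of 10 Asn genes, 9 had a pooled summit and 9 had one in each replicate, with pooled signals from 63.73 to 137.7, and none had a thresholded summit. The exception, tRNA:Asn-GTT-1-9, is a singleton. The other 9 lie in clusters where neighbouring genes share peaks, so they are not independent. Ile followed with 10 of 12 pooled and a mean of 77.8% ± 4.81 over replicates, and Phe with 6 of 8 in the pooled and each replicate list. Pro had 11 of 17 in the pooled and each replicate list.

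By the mean over replicates, the lowest groups were Met at 22.2% ± 9.62 (2 of 6 pooled) and Tyr at 36.7% ± 5.77 (5 of 10 pooled). Ser, with 8 of 20 pooled, had the widest spread: 10, 14 and 4 genes in replicates 1, 2 and 3. Neighbours in the middle of this order lay within each other's spread, such as Leu (65.2% ± 6.94), Ala (64.7% ± 15.6) and Gln (63.9% ± 12.7). In the pooled list Arg had 15 of 26 genes, Leu 14 of 22, Glu 13 of 21, Gly 10 of 20, Lys 9 of 19, Thr 10 of 18, Ala 13 of 17, Val 6 of 15 and Gln 6 of 12. By thresholded summits, Ala, Arg, Cys, Leu, Phe and Pro had 3 genes each, and Asn, Met, initiator Met and Ser had none.

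**Figure D5:**
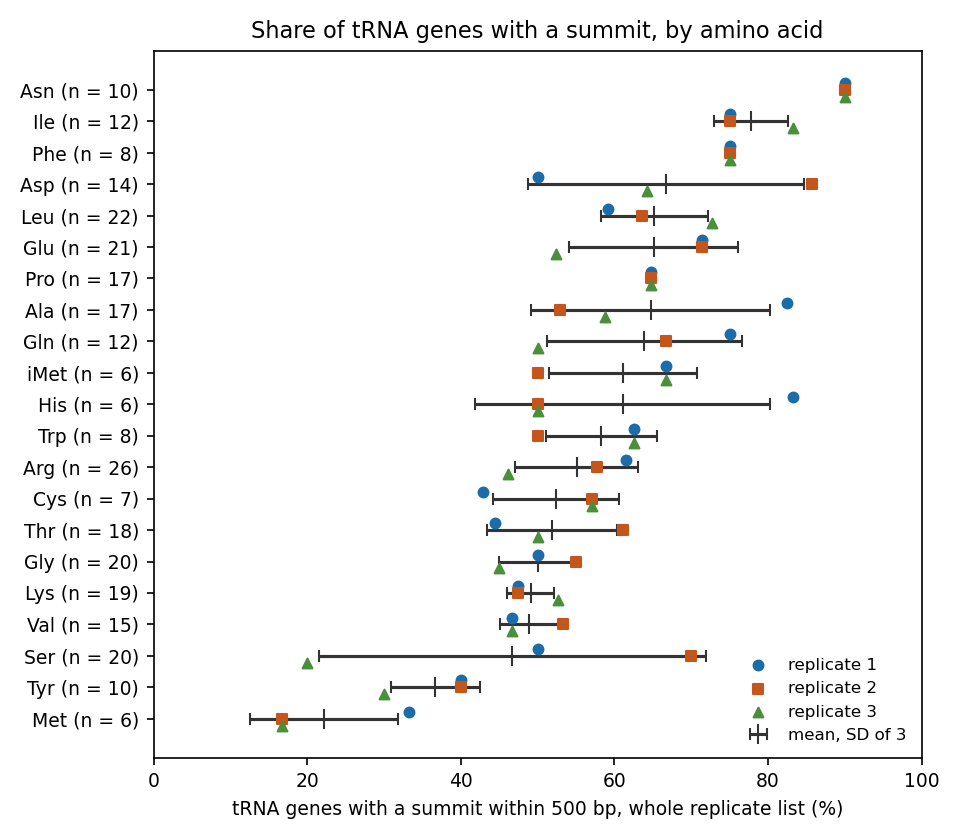
Percentage of tRNA genes with a summit within 500 bp in each whole replicate list, by amino acid for groups of 5 or more genes, with the mean and SD of 3 replicates. Asn lies at 90.0% in each replicate, Met at a mean of 22.2%, and Ser spreads from 4 of 20 genes to 14.

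Anticodons of 1 amino acid could differ. Pro-AGG had a pooled summit at 6 of 7 genes and Pro-TGG at 4 of 5, but Pro-CGG at 1 of 5, with the same counts in each replicate. Arg-ACG had 8 of 10 and Arg-TCG 3 of 10. Glu-TTC had 5 of 6 and Glu-CTC 8 of 15. Lys-CTT had 8 of 13 and Lys-TTT 1 of 6. All 5 genes named above with fewer than 50% unique stretches are Glu-CTC or Lys-TTT genes without a summit. The part of read placement in these 2 contrasts was not tested. Gly-TCC had 5 of 6 and Gly-GCC 5 of 14. Ser-AGA had 1 of 8, and 2, 3 and 0 genes in replicates 1, 2 and 3. Of the Val anticodons with 5 or more genes, Val-CAC had 3 of 7 and Val-AAC 2 of 6. Thr-AGT had 5 of 9 and Thr-TGT 3 of 6. The groups are small and their genes share clusters, so these are counts and no test was run.

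Other anticodons with 5 or more genes lay between these. Ala-AGC had 10 of 12, Ile-AAT 8 of 10, Leu-CAG 6 of 8, Asp-GTC 8 of 14, Cys-GCA 4 of 7, initiator Met-CAT 4 of 6 and Ser-GCT 1 of 6. Trp-CCA had 4 of 8, His-GTG 3 of 6 and Gln-CTG 3 of 8. By arm, 2R had the highest share of tRNA genes and X the lowest. The share of all genes on each arm was not counted, so whether the difference is particular to tRNA genes was not tested. Large clusters, such as the one in EcR, also lie on 2R. A pooled summit lay at 73 of 100 genes on 2R, 48 of 79 on 3R, 23 of 49 on 3L, 19 of 41 on 2L and 8 of 26 on X, and the replicate means were 74.3% ± 2.52 on 2R and 28.2% ± 8.01 on X. No tRNA gene lies on arm 4.

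Summits lay close to the tRNA start in the full lists and further from it in the thresholded list. The median distance was 137 bp in the pooled list, where 71 of 171 genes (41.5%) had the summit within 100 bp and 29 had it inside the gene. Coding genes had a median of 103 bp. In the thresholded list the median was 214 bp, 6 of 33 genes had the summit within 100 bp and none had it inside the gene, with 19 upstream and 14 downstream. Coding genes there had a median of 133 bp, measured in the same way from their nearest start. The 3 replicates gave medians of 133, 150 and 164 bp.

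The letters of the B box (GTTCNANNC, both strands) lay within 50 bp of the summit at 30 of 118 pooled tRNA peaks (25.4%) and at 2.94% of all pooled peaks. The tRNA peaks were picked by their distance to tRNA genes, and 274 of the 295 genes (92.9%) hold these letters. A share above that of all peaks is therefore partly built in, and whether CG17359 binds the B box was not tested. They lay there at 3 of 24 thresholded tRNA peaks (12.5%), and at none of the 12 away from coding starts, against 2.81% of the thresholded list. In replicates 1, 2 and 3 the tRNA peaks gave 17.5%, 25.6% and 15.0%. The letters of the DNA replication-related element (TATCGATA, the same on both strands), found in many fly promoters, lay within 50 bp at 1 of the 24 thresholded tRNA peaks and at 1.03% of that list. G and C made up 39.4% of the bases around pooled tRNA summits and 39.3% around all pooled summits, and 58.1% of the tRNA genes themselves. Genes with and without a pooled summit held the B box at 91.2% and 95.2%, and the A box at 91.8% and 91.1%.

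Below the thresholded list, many tRNA genes still recurred, but how often all genes recur was not counted. The pooled peaks were called on the same 3 replicates together, so some overlap between the lists is built in. Of the 138 genes with a pooled but no thresholded summit, 91 had a summit in all 3 replicate lists. The strongest of these, tRNA:Lys-TTT-1-1 in an intron of Btk, a tyrosine kinase gene, had a pooled signal of 210.2 at rank 7318, just past the 7287 of the thresholded list. Its replicate signals were 77.62, 70.48 and 57.58. tRNA:iMet-CAT-1-1, tRNA:iMet-CAT-1-2 and tRNA:Glu-TTC-1-4 shared the next peak, of 203.8, with replicate signals of 63.71, 87.40 and 69.90. tRNA:Ile-AAT-1-6 and tRNA:Ile-AAT-1-7 shared a peak of 194.7, with signals of 92.67, 37.38 and 68.32 in replicates 1, 2 and 3.

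Over all members, 126 had a summit in 3 replicate lists, 46 in 2, 48 in 1 and 75 in none. Of the pooled set of 171, 123 (71.9%) had a summit in all 3 replicates. The same counts were not made for all genes, and the pooled peaks come from the same 3 replicates. Replicates 1 and 2 shared 145 genes, which is 81.9% of the first and 80.1% of the second. Replicates 1 and 3 shared 138 (78.0% and 86.2%), and replicates 2 and 3 shared 141 (77.9% and 88.1%). In no list at all were 74 genes, of which 41 were singletons and 33 clustered.

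Genes for the tRNA machinery were read beside the tRNA genes. Of 33 names listed, 32 were found on the arms, 1 of them by a synonym. A thresholded summit lay at 8 of 32 and a pooled one at 19 (59.4%), beside the 23.9% and 46.8% of all protein-coding genes. Tcs5, a subunit of the KEOPS complex that modifies tRNAs, had 5311 at rank 17 and ranked 25, 14 and 18 in the replicates. The genes for TFIIIB subunits Bdp1 and Brf had 1605 and 1296, and Polr3E, a subunit of RNA polymerase III, had 1362. Their summits lay 59, 155 and 243 bp from a start.

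Lower signals were those of Rpp30 (436.4), a subunit of RNase P that trims the leading end of tRNA precursors, RNaseZ (295.7), which trims the trailing end, and Polr3G (219.8), another subunit of the polymerase. Polr3A and Polr3B, the largest subunits, and Trf had no summit in any list. CG17359 itself had a summit only in replicate 1, with a signal of 36.36.

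Other genes that RNA polymerase III transcribes were uneven. The 5S rRNA genes, a repeated array, had none in any list (0 of 100). Of 10 further genes, 3 had a thresholded and 4 a pooled summit, beside 20.5% and 42.7% of all genes. snRNA:U6:96Ab and snRNA:U6:96Ac shared a thresholded peak of 416.4, snRNA:7SKa had one of 340.7, and RNaseMRP:RNA had a pooled summit of 168.8. Both 7SL RNA genes, snRNA:7SKb and snRNA:U6atac had none in any list. Whether reads could be placed in the 5S array was not tested.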

How the data were processed

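The 5 peak lists were deposited by the authors in narrowPeak format on dm6. Per the accompanying deposited text, replicate peaks were called against 1 shared control, pooled peaks on all 3 replicates together, and thresholded peaks derived from those lists. The sources used here name no aligner, peak caller or threshold. Signal values are those of the authors, and the -log10 q values that the authors deposited were not used to filter. The summit is the position the authors deposited as an offset from the peak's start. All 7287 thresholded peaks were the 7287 strongest pooled peaks, and the other lists stop at 30000.

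Genes came from Ensembl release 115 on Release 6 of the genome, the same assembly; arm names matched and no peak ran past its arm. A tRNA gene counted when its start had a summit within 500 bp, and any other gene when at least 1 of its annotated starts did. Shares were compared over replicates by an exact sign-flip permutation test. The named genes were those set by the rules: every tRNA gene with a thresholded summit away from coding starts, the 10 with the highest thresholded signal, the 5 highest pooled signals outside the thresholded list with a summit in all replicates (6 with a tie), the 3 largest clusters, up to 8 machinery genes (1 is not reported here), and amino acids and anticodons with 5 or more genes. The listed 7SK gene was matched to snRNA:7SKa and snRNA:7SKb. Members, lists and tests were chosen with earlier results of these data known. The counting functions were tested on simulated summits. Python 3.11.15, numpy 2.4.6, pandas 2.3.3, scipy 1.17.1 and matplotlib 3.10.9 were used. Alternatives are in the closing section.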

Additional observations from a re-analysis of the deposited data

How the results depend on the processing

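With a window of 250 bp or 1000 bp in place of 500 bp, the thresholded count of 33 genes became 20 or 60, its count away from coding starts (19) became 10 or 39, the share in full replicate lists (58.5%) became 42.6% or 72.8%, and the share among the strongest replicate peaks (12.2%) became 7.80% or 21.6%. Requiring the peak to overlap the gene gave 12 and 8 thresholded genes, and the stronger part of each list by signal gave 14 and 3 thresholded and 100 and 81 pooled genes (171 and 147 as reported), in each pair for all summits and for those away from coding starts. Taking 15000 or 2500 strongest peaks gave 35.1% or 3.28%, the last chosen after seeing the data. Leaving out each replicate in turn, the genes shared by the strongest peaks of the remaining replicates numbered 21 to 25. The difference between tRNA genes with and without a coding start in full replicate lists reversed to -1.42 points with a limit of 250 bp for the coding start; the cause was not tested. The same difference was 4.50 points with a summit window of 1000 bp, and among the strongest peaks it fell from 29.5 to 11.9 and 15.8 points with coding limits of 250 and 1000 bp. The difference between clustered genes and singletons was 2.26 points in place of 5.38 among the strongest peaks with a window of 1000 bp, and 15.5 in place of 33.5 in full lists with a window of 100 bp. The other alternatives run kept the direction, and counts not named here stayed within 1.5 times. Without annotated pseudogenes, added after seeing the data, the counts were 33 and 169. No paired analysis was possible because there is no other group of samples to pair with; differences between classes of genes were taken within each replicate. The lists give no depth, the pooled and replicate lists end at 30000 peaks, and with 3 replicates no exact test could go below 0.25, so the absence of a summit does not show absence of binding.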
